A study of Mus musculus with 15 samples.

Results

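The genes described here carry the DNA damage checkpoint and the main pathways of DNA repair in the mouse. Of 54 genes chosen by name, 53 had a probe set annotated with that gene alone, out of 19938 genes measured in this way. Xrcc2, a paralog of the recombinase, was not analysed here. Where a gene had several, the one with the greatest average intensity on the 15 arrays stood for it, which mattered for Nbn, with 2 probe sets, and Bard1, with 3. By pathway, 8 genes belong to the checkpoint and the response to stalled forks, 19 to recombination, 10 to the Fanconi pathway, 3 to mismatch repair, 6 to end joining and 7 to base excision and single-strand break repair.

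RNA was measured on Affymetrix mouse gene arrays in epithelial cells from the mammary glands of female mice aged 8 weeks, grown in culture with EGF, insulin, cholera toxin and hydrocortisone and harvested while proliferating. The 15 arrays form 5 groups of 3: p53- Rb- Myc+ (p53 and Rb deleted, MYC overexpressed), p53- Myc+ (p53 deleted, Rb wild type, MYC overexpressed), p53- Rb- (p53 and Rb deleted, no added MYC), p53- (p53 deleted, Rb wild type, no added MYC) and WT (all 3 unaltered). An adenovirus carrying Cre recombinase made the deletions and a retrovirus delivered MYC. The labels name neither the strain nor the targeted alleles, and do not say whether WT cells received a control virus or whether replicates were separate animals or cultures. The p-values therefore measure only how far these samples spread, and that spread may be technical.

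Some arrays went against their labels. The Rb1 probe set read 52.7, 55.3 and 64.2 in p53- Rb- arrays, against 147, 181 and 157 in p53- arrays and 86.5, 88.1 and 104 in WT arrays. WT arrays thus lay between these groups, without overlap. It read only 48, 26.8 and 34.5 in the p53- Myc+ arrays, although their label gives Rb as wild type. The mouse Myc probe set read 114, 108 and 162 in p53- Myc+ arrays, against 841, 1046 and 902 in p53- arrays, so it was lower with the Myc+ label. Which part of Rb1 or Myc these probes cover, and whether the Myc probes read the transgene, was not tested. The p53 label was not checked on Trp53 itself. Of 12 epithelial markers, all 12 were lower in the arrays labelled Myc+. Their summed intensity was 643.1 to 739.9 in p53- Rb- Myc+ and 185.9 to 260.9 in p53- Myc+ arrays, against 22640 to 25180 in p53- Rb-, 22400 to 24940 in p53- and 25200 to 26120 in WT arrays. Krt18, Krt5 and Epcam were near the bottom of the scale there, with means of 4.78, 5.51 and 10.3 in p53- Myc+ arrays. Krt19 was not, at 486, 465 and 517 in p53- Rb- Myc+ arrays. Its means were 75.6 in p53- Myc+ and 1248 in p53- Rb- arrays. The epithelial label therefore held by its markers in 9 arrays. In the 6 labelled Myc+ it did not by most of them, with Krt19 still read in p53- Rb- Myc+ arrays. Fibroblast markers were read in all groups. Their sums over 12 genes were 4942 to 5730 in WT, 4621 to 5059 in p53- and 8041 to 10030 in p53- Rb- arrays. They were 6549 to 7780 in p53- Myc+ and 3988 to 5105 in p53- Rb- Myc+ arrays. The epithelial markers thus do not show that the cultures held epithelial cells alone. In this bulk RNA, fewer cells of a type and less RNA per cell cannot be told apart.

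The checkpoint kinases ATM and ATR sense broken DNA and stalled replication forks, and act through CHK2 and CHK1 to hold the cell cycle. Breaks are mended either by recombination with the sister chromatid, where BRCA1, PALB2 and BRCA2 load the recombinase, or by end joining, where Ku and DNA-PK hold the ends for ligase IV. The Fanconi proteins unhook interstrand crosslinks, mismatch repair corrects copying errors, and base excision removes damaged bases. Many of these genes are known targets of E2F factors, which Rb restrains, and are transcribed mostly in late G1 and S phase. Loss of BRCA1 or BRCA2 is a known cause of breast cancer.

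Promoters from 250 bases before to 50 bases after the annotated start were available for 45 of the 53 genes (RefSeq, GRCm38.p6). They were searched on both strands for the E2F motif (TTTCCCGC, TTTCGCGC, TTTGCCGC or TTTGGCGC), which E2F factors bind, and for the E-box CACGTG, which MYC with MAX binds. An E2F motif was found in 9 of 45 genes (20%), against 3.48% of the 15614 tested genes with a promoter sequence and 2.6% of all 27025 genes in the table. These were Chek2, Clspn, Bard1, Brca2, Rad51c, Fancg, Msh3, Msh6 and Xrcc6. An E-box was found in 6 of 45 (13.3%), against 9.5% and 8.09%, in Eme1, Slx4, Xrcc5, Parp1, Parp2 and Lig3. The cell cycle homology region TTTGAA, also on both strands, was found in 4 of 45 (8.89%), in Bard1, Eme1, Polq and Rad51b, against 17.3% of tested genes and 20.2% of all. Rad51c had a match at each of its 2 annotated starts, and the 2 matches of Msh3 overlap. A match is a description of these letters and not of binding. The 6 promoters below are shown because they hold a match, 4 of them to E2F and 2 to the E-box, next to genes whose values are given in the paragraphs that follow; they were picked after the values were seen. Capitals mark the E2F motif in Brca2 (chr5:150522371-150522670, plus strand), Bard1 (chr1:71102923-71103222, minus strand), Clspn (chr4:126556730-126557029, plus strand) and Msh6 (chr17:87974800-87975099, plus strand), and the E-box in Parp1 (chr1:180568641-180568940, plus strand) and Lig3 (chr11:82780859-82781158, plus strand).
Brca2: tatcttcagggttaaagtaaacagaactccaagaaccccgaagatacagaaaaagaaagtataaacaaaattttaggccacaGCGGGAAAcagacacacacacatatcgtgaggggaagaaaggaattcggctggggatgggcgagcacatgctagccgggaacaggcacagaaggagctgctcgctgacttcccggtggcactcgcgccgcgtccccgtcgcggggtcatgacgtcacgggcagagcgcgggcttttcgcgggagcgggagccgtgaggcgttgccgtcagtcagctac
Bard1: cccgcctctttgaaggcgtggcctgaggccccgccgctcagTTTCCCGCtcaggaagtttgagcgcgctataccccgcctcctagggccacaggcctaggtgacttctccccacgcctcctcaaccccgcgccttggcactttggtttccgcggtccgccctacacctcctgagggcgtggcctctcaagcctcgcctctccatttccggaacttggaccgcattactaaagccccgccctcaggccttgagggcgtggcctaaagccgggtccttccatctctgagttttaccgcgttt
Clspn: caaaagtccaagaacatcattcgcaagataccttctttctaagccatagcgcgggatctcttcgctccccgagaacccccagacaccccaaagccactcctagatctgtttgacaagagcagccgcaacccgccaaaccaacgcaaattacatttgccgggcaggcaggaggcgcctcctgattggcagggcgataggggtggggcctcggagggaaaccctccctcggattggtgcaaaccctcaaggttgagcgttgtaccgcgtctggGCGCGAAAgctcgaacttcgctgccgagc
Msh6: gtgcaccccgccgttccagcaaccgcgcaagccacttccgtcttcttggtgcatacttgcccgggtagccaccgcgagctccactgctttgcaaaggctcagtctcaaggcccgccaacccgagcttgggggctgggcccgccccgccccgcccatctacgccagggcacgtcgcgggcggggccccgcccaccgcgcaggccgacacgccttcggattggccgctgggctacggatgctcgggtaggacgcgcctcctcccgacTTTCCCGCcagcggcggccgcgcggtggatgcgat
Parp1: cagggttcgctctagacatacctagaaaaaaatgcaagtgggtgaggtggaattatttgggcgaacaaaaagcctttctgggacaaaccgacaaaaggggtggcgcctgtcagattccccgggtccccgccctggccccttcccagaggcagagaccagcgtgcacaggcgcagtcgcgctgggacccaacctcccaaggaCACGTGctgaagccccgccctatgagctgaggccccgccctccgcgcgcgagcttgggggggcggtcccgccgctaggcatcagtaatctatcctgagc
Lig3: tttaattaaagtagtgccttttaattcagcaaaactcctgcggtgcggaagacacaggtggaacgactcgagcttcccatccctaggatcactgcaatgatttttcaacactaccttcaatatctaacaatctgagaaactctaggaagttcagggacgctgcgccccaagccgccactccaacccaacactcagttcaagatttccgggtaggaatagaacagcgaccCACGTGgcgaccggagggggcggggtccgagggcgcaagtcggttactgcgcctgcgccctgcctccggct

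**Figure D1:**
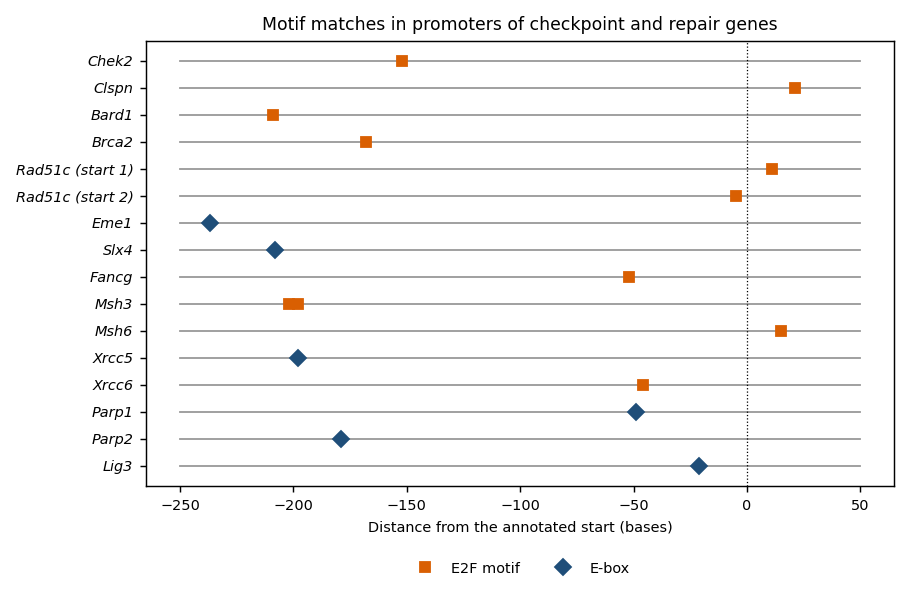
Positions of E2F motifs (squares) and E-boxes (diamonds) in the promoters that hold one, by distance in bases from the annotated start (x axis); each line is one promoter of 300 bases. The E-boxes of Parp1 and Lig3 begin 49 and 21 bases before the start, and the E2F motifs of Clspn, Msh6 and one of the starts of Rad51c lie after it.

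Across the 5 groups, checkpoint and repair genes were lowest in WT cells and, for most, highest in cells with the Myc+ label. The highest group mean was in p53- Myc+ arrays for 30 of the 53 genes, in p53- Rb- Myc+ arrays for 13, in p53- arrays for 7, in p53- Rb- arrays for 2 (Fancg and Xrcc5) and in WT arrays for 1 (Mus81). WT had the lowest mean for 49 of 53. The exceptions were Rad51d, Mus81 and Lig3, which were lowest in p53- arrays, and Lig4, lowest in p53- Rb- arrays. Highest and lowest groups were not counted over all genes. The intensities of all 53 genes summed to between 7712 and 8885 in p53- Rb- Myc+ arrays, 8332 and 9066 in p53- Myc+, 5097 and 5863 in p53- Rb-, 5502 and 6467 in p53-, and 3314 and 3780 in WT arrays. No gene lay under an intensity of 16 in every array, and 7 did so in at least 1. Values are intensities on a linear scale, and changes are log2 fold changes of the intensity plus 16, with their SE, from a limma fit of all 15 arrays. A gene rose or fell where its adjusted p over all 19938 genes was under 0.05.

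**Figure D2:**
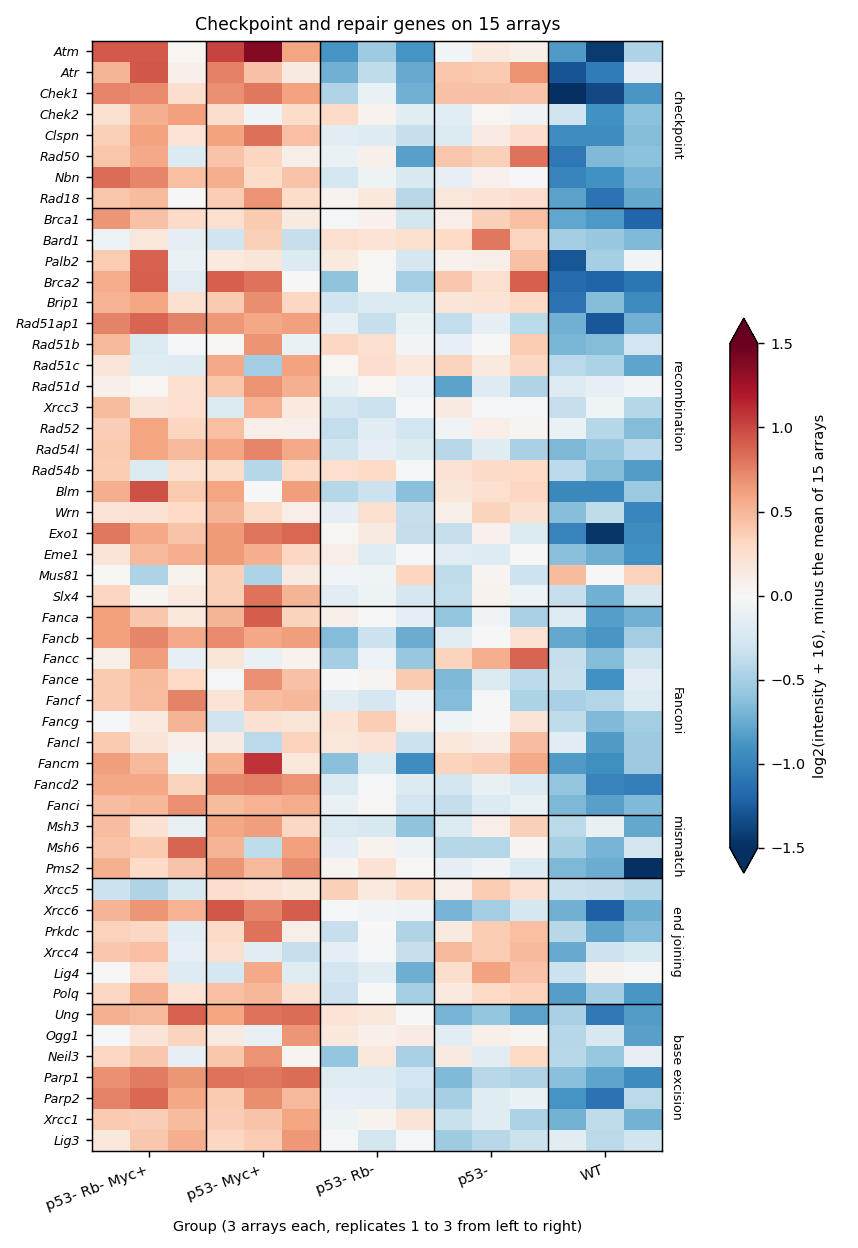
Heat map of 53 checkpoint and repair genes (rows, by pathway) on 15 arrays (columns, 3 per group); colour is log2(intensity + 16) minus the gene's mean over the 15 arrays. WT arrays are mostly blue, arrays labelled Myc+ mostly red, and a block of checkpoint genes is redder in p53- than in p53- Rb- arrays.

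The p53- and WT groups were set against each other to ask what accompanied p53 loss. Checkpoint and repair genes rose broadly: 34 of 53 rose and 0 fell, while 19.3% of all genes rose and 9.72% fell. The median change of the 53 genes was 0.64, against 0.12 over all genes. By pathway, 8 of 8 checkpoint genes, 13 of 19 recombination genes, 7 of 10 Fanconi genes, 1 of 3 mismatch repair genes, 4 of 6 end joining genes and 1 of 7 base excision genes rose. For 38 of the 53 genes all 3 p53- arrays lay above all 3 WT arrays, as for 26.4% of all genes.

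Chek1, the effector kinase of ATR, read 134, 134 and 133 in p53- arrays, against 21.1, 27.4 and 44.7 in WT arrays. The groups did not overlap, and the 3 p53- arrays were close to each other (log2 fold change 1.70 ± 0.19, adjusted p = 2.7e-06). Atr itself read 98.6, 96.6 and 121 in p53- arrays, against 19.1, 25.5 and 61.9 in WT arrays (1.32 ± 0.25, adjusted p = 0.000505). WT replicate 3 stood above the other WT arrays but below every p53- array. Rad50, the ATPase of the complex that first binds broken ends, read 333, 319 and 446 in p53- arrays and 109, 149.8 and 156 in WT arrays, without overlap (1.31 ± 0.23, adjusted p = 0.000246). Rad18, a ubiquitin ligase that acts at stalled forks, read 412, 429 and 440.5 in p53- arrays and 204, 161 and 209 in WT arrays (1.10 ± 0.18, adjusted p = 0.00014). The other checkpoint genes rose less far: Atm by 0.98 ± 0.25, the claspin gene Clspn by 0.90 ± 0.17, Nbn, whose product recruits ATM, by 0.85 ± 0.16 and Chek2, the effector kinase of ATM, by 0.54 ± 0.18.

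In recombination, the genes of the BRCA proteins rose together. Brca1 read 97.6, 119.9 and 129 in p53- arrays, against 46.1, 42.5 and 30.6 in WT arrays (1.24 ± 0.17, adjusted p = 1.88e-05). Brca2, which loads the recombinase, read 81.1, 70.6 and 121 in p53- arrays and 17.2, 15.9 and 18.7 in WT arrays (1.66 ± 0.26, adjusted p = 7.55e-05). Every p53- array was above every WT array for both genes, and p53- replicate 3 was the highest for each. Brip1, a helicase bound by BRCA1, read 126, 128 and 138 in p53- arrays and 42, 64 and 49.2 in WT arrays (1.13 ± 0.16, adjusted p = 3.88e-05). Blm, the helicase that dissolves crossed strands, read 113, 118 and 125 in p53- arrays and 41.9, 41.9 and 61 in WT arrays, with WT replicate 3 the closest (1.08 ± 0.19, adjusted p = 0.000273). Bard1, the partner of BRCA1, rose by 1.05 ± 0.19, Palb2, which joins BRCA1 to BRCA2, by 0.80 ± 0.26, and the resection nuclease gene Exo1 by 0.96 ± 0.18. Rad54b (0.90), Wrn (0.89), Rad51c (0.82), Eme1 (0.64), Rad51b (0.63) and Rad51ap1 (0.59) also rose. The nuclease gene Mus81 (-0.48) and the paralog gene Rad51d (-0.36) were below 0 and did not pass, while Eme1 and Rad51c, whose products bind theirs, rose. Rad51d passed as a fall in limma after each array was centred on its median (adjusted p = 0.0442), after quantile normalization (adjusted p = 0.0301) and without p53- replicate 2 (adjusted p = 0.0272). Rad52, Rad54l, Slx4 and Xrcc3 had changes of 0.42, 0.18, 0.31 and 0.32 and did not pass.

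Among the Fanconi genes, Fancm, which anchors the core complex on DNA, rose by 1.19 ± 0.23 and Fancc, a core subunit, by 1.01 ± 0.20. The clamp genes Fancd2 and Fanci rose by 0.68 ± 0.16 and 0.49 ± 0.15, and Fancl (0.76), Fancb (0.73) and Fancg (0.56) rose too, while Fanca (0.21) and Fance (0.04) did not pass, nor did Fancf, which averaged 70 in p53- and 68.9 in WT arrays. In mismatch repair Pms2, which nicks the strand to be corrected, rose by 0.87 ± 0.19, and Msh3 (0.51) and Msh6 (0.22) did not pass. Polq, the polymerase of microhomology-mediated joining, read 67.7, 77.4 and 80.3 in p53- arrays and 26.7, 37.3 and 25.4 in WT arrays (1.00 ± 0.17, adjusted p = 0.000185). The other end joining genes that rose were Prkdc, the catalytic subunit of DNA-PK, by 0.95 ± 0.20, Xrcc4, the scaffold of ligase IV, by 0.88 ± 0.19, and Xrcc5, which encodes the larger Ku subunit, by 0.61 ± 0.15, while Xrcc6 (0.40) and Lig4 (0.53) did not pass. Of the base excision genes, Parp2, a strand-break sensor, was the one that rose (0.54 ± 0.18, adjusted p = 0.0288), with changes of -0.13 in Lig3 to 0.48 in Ogg1 among the others.

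Other genes moved beside these. Of 18 proliferation markers, 10 rose and 0 fell, with summed intensities of 9143 to 9905 in p53- arrays and 6674 to 6958 in WT arrays. Leukocyte markers fell in 6 of 11 and rose in 1, and their sums were 665.7 to 811.1 in p53- and 2271 to 2579 in WT arrays. Most of the WT sum was the monocyte gene Cd14, at a mean of 328 in p53- and 1566 in WT arrays. Lyz2, Laptm5 and Cd68 were lower too, with means of 17.9, 16.2 and 65.1 in p53- and 289, 68.9 and 128 in WT arrays. Cd79a of B cells averaged 11.8 in p53- and 9.7 in WT arrays, near the bottom of the scale. The pan-leukocyte gene Ptprc averaged 43.1 in p53- and 19.6 in WT arrays. No marker of the list was at 0 in its group means, the lowest being Itgam of myeloid cells, at 7.98, in p53- arrays. Of 16 known p53 targets, 11 fell and 1, Rrm2b, rose. Of 12 epithelial markers 4 fell and 0 rose, of 12 fibroblast markers 3 fell and 1 rose, and of 8 endothelial markers 2 fell and 1 rose. What part these had in the rise of repair genes was not tested. The median intensity over the 19938 genes was 67.8 to 69.0 in p53- arrays and 59.6 to 65.0 in WT arrays. After centring each array on its median the median change of all genes was 0.025, and 29 of the 53 genes rose and 1 fell. After quantile normalization it was -0.022, and 30 rose and 2 fell, Rad51d and Mus81. The risers' share of all calls was 66.5% as reported, 52.5% after centring and 51.6% after quantile normalization. Without p53- replicate 3, 3470 genes passed in place of 5780, and over all arrays left out in turn 27 to 35 of the repair genes rose. With only these 6 arrays in the fit, so without those labelled Myc+, 34 rose and 0 fell.

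**Figure D3:**
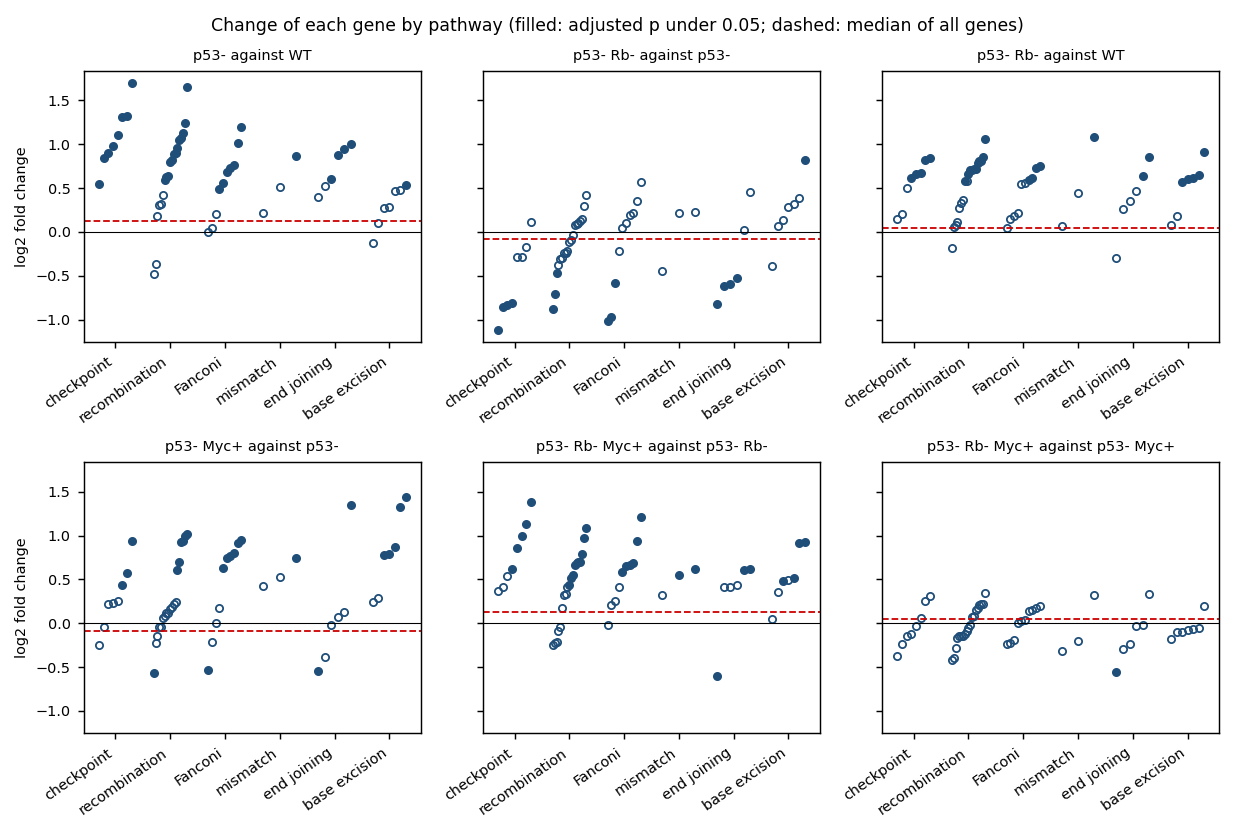
Log2 fold change (y axis) of each gene by pathway (x axis) in 6 comparisons; filled points passed at an adjusted p under 0.05, and the dashed line is the median of all 19938 genes. Points lie mostly above the line for p53- against WT, and checkpoint and end joining points lie mostly below it for p53- Rb- against p53-.

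Rb loss was examined in cells that already lacked p53. The p53- arrays are the same as those set against WT above and against p53- Myc+ below, so these comparisons are not independent. Several checkpoint, Fanconi and end joining genes fell, among them Atr, Chek1, Fancm, Fancc and Lig4, and the uracil glycosylase gene Ung rose. Of 53 genes 14 fell and 1 rose, against 10.4% and 9.36% of all genes, or 19.8% in either direction. The 14 comprised 4 of 8 checkpoint, 3 of 19 recombination, 3 of 10 Fanconi and 4 of 6 end joining genes, and 0 of 3 mismatch repair and 0 of 7 base excision genes. The median of the 53 was -0.11, close to the -0.08 of all genes. All 3 p53- Rb- arrays lay below the p53- arrays for 20 genes and above them for 9, against 23.1% and 16.9% of all genes.

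Atr read 36.2, 49.9 and 34.8 in p53- Rb- arrays, below each p53- array (-1.11 ± 0.25, adjusted p = 0.00312). Chek1 read 64.9, 87.4 and 51.1 in p53- Rb- arrays, also below each p53- array (-0.86 ± 0.19, adjusted p = 0.00331). Rad50 read 229, 261 and 133 (-0.81 ± 0.23, adjusted p = 0.0158), and Atm fell by 0.83 ± 0.25. For every repair gene that fell here, not only Atr and Rad50, p53- Rb- replicate 2 was the highest of its group. The falls thus share this pattern among the arrays and are not separate of each other. Clspn (-0.29), Rad18 (-0.29), Nbn (-0.17) and Chek2 (0.12) did not pass. Of the recombination genes, Blm read 68.3, 74.3 and 57.2 in p53- Rb- arrays, without overlap with p53- arrays (-0.71 ± 0.19, adjusted p = 0.0116), Brca2 fell by 0.87 ± 0.26 and Brip1 by 0.47 ± 0.16, and Brca1 did not pass (-0.38 ± 0.17, adjusted p = 0.116).

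In the Fanconi pathway, Fancm read 47.5, 68.3 and 35.2 in p53- Rb- arrays, against 107, 110.1 and 128 in p53- arrays (-1.01 ± 0.23, adjusted p = 0.0031). Fancc read 20.3, 32.7 and 18.9, against 49.3, 59.4 and 78.7 (-0.97 ± 0.20, adjusted p = 0.00155), and Fancb, another core subunit, 17.1, 25.3 and 14.8, against 29.9, 35.3 and 44.2 (-0.58 ± 0.16, adjusted p = 0.0144). None of these pairs of groups overlapped. The clamp genes Fancd2 and Fanci had changes of 0.04 and 0.10 and did not pass, nor did Fance, at 0.57 ± 0.21, adjusted p = 0.0549. Lig4, the ligase of end joining, read 46.5, 52 and 30.2 in p53- Rb- arrays, against 75.7, 100.1 and 86.8 in p53- arrays (-0.83 ± 0.21, adjusted p = 0.00792). Xrcc4 fell by 0.62 ± 0.19, Prkdc by 0.59 ± 0.20 and Polq by 0.53 ± 0.17, while the Ku genes Xrcc5 (0.03) and Xrcc6 (0.46) did not pass. Ung, which removes uracil from DNA, read 194, 187 and 166 in p53- Rb- arrays, against 96.3, 105 and 88.3 in p53- arrays, and every p53- Rb- array was above every p53- array (0.82 ± 0.17, adjusted p = 0.00183).

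The number that fell rested on single arrays. It was 4 without p53- Rb- replicate 3, 5 without p53- replicate 3 and 7 without p53- Rb- replicate 1, and the count over all genes was 3950 as reported, 2483 without p53- replicate 1, 2130 without p53- replicate 3 and 2098 without p53- Rb- replicate 3. Adjusted p reached 0.139 for Rad50, 0.099 for Fancb, 0.0676 for Blm and 0.0674 for Lig4, which no longer passed without p53- Rb- replicate 3. Rad50, Fancb and Blm were also lost without p53- replicate 3, and Fancb without p53- Rb- replicate 1. With only these 6 arrays in the fit 14 fell and 2 rose, the second being Fance, and without p53- replicate 2 there were 3 that rose, Rad51d among them. Proliferation markers rose in 4 of 18 and fell in 3, and fibroblast markers rose in 9 of 12, with sums of 8041 to 10030 in p53- Rb- and 4621 to 5059 in p53- arrays. Their part in the falls was not tested.

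The p53- Rb- cells were also set against WT cells, and many checkpoint and repair genes were higher in them. Of 53 genes 28 rose and 0 fell, against 10.8% and 3.75% of all genes, with a median change of 0.58, against 0.045 over all genes. This comparison shares its WT arrays with that of p53- cells and its p53- Rb- arrays with the comparison before. By pathway, 5 of 8 checkpoint, 11 of 19 recombination, 4 of 10 Fanconi, 1 of 3 mismatch repair, 2 of 6 end joining and 5 of 7 base excision genes rose. For 32 genes every p53- Rb- array lay above every WT array, as for 19.7% of all genes. Exo1 read 156, 169.5 and 115 in p53- Rb- arrays, against 68.2, 45.4 and 72.8 in WT arrays (1.06 ± 0.18, adjusted p = 0.000468). Pms2 read 64.4, 74.9 and 62.6, against 32.9, 30.5 and 10.3 (1.09 ± 0.19, adjusted p = 0.000595), and Brca1 87.9, 94.9 and 71.8, against 46.1, 42.5 and 30.6 (0.86 ± 0.17, adjusted p = 0.00162). The groups did not overlap for these genes, and WT replicate 2 for Exo1 and WT replicate 3 for Pms2 were the lowest arrays.

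Fancd2, which is clamped on DNA at crosslinks, read 64.6, 75.3 and 65.2 in p53- Rb- arrays, against 45.9, 30.7 and 29.7 in WT arrays (0.72 ± 0.16, adjusted p = 0.00353). Eme1, the partner of the MUS81 nuclease, read 93.9, 74.8 and 85.2, against 50.5, 46.1 and 38.6 (0.72 ± 0.16, adjusted p = 0.00423), and Rad18 read 379.8, 409 and 269, against 204, 161 and 209 (0.82 ± 0.18, adjusted p = 0.00446). Xrcc6, which encodes the smaller Ku subunit, read 185, 180.4 and 179.8 in p53- Rb- arrays, against 107, 70.5 and 106 in WT arrays (0.86 ± 0.17, adjusted p = 0.00142). Ung, at 114, 71.1 and 85.9 in WT arrays, was higher in every p53- Rb- array (0.92 ± 0.17, adjusted p = 0.00104). The strand-break genes Xrcc1 and Parp1 rose by 0.66 ± 0.16 and 0.57 ± 0.15. Atr (0.21), Atm (0.15), Fancm (0.18) and Fancc (0.04), which fell with Rb loss in p53- cells, did not pass here, with adjusted p of 0.644, 0.747, 0.655 and 0.926. In the same arrays 10 of 18 proliferation markers rose and 0 fell, with sums of 9032 to 10080 in p53- Rb- and 6674 to 6958 in WT arrays. Of 12 fibroblast markers 9 rose and 0 fell, of 11 leukocyte markers 4 fell and 0 rose, of 12 epithelial markers 1 fell and 0 rose, and of 16 p53 targets 9 fell and 0 rose; their part in the repair genes' rise was not tested. Without p53- Rb- replicate 1 or replicate 2, 18 repair genes rose, and all genes called numbered 1736 and 1697 then and 1700 without WT replicate 2, against 2903 as reported. After centring and after quantile normalization 25 and 24 rose, and risers were 74.2% of all calls as reported, 65.0% after centring and 58.8% after quantile normalization.

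**Figure D4:**
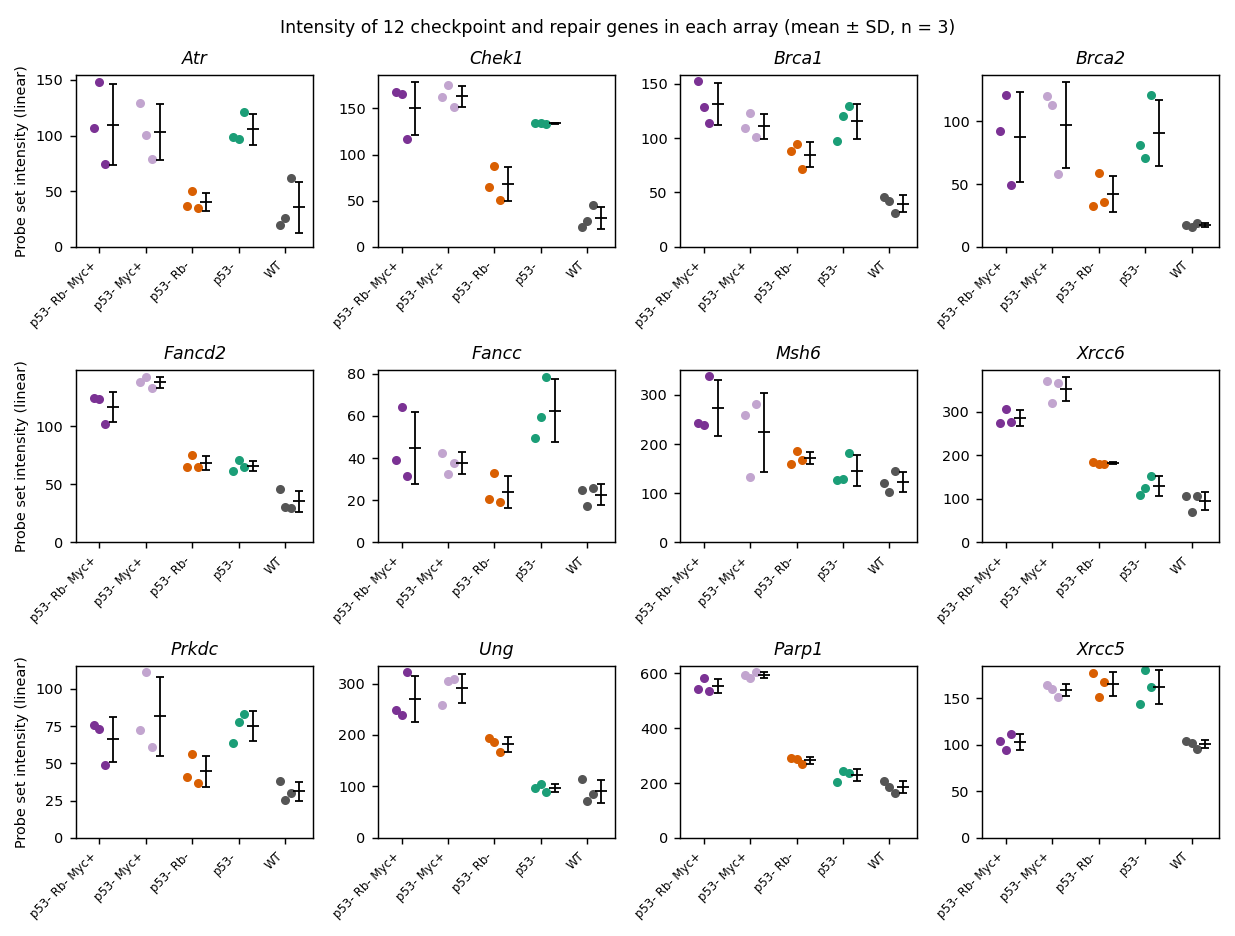
Probe set intensity (y axis, linear) of 12 genes in each array by group (x axis, 3 points each); bars to the right of the points are the mean ± SD (n = 3). Atr, Chek1, Brca2, Fancc and Prkdc are higher in p53- than in p53- Rb- arrays, while Ung and Parp1 are highest in the arrays labelled Myc+.

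What came with MYC, in cells whose label gives Rb as wild type, was examined by setting p53- Myc+ against p53- arrays. Base excision and strand-break genes such as Parp1, Ung and Lig3 rose: 5 of 7 passed, with 6 of 10 Fanconi, 6 of 19 recombination, 3 of 8 checkpoint, 1 of 3 mismatch repair and 1 of 6 end joining genes. In all, 22 of 53 rose and 3 fell, against 13.1% and 20.2% of all genes, and the median of the 53 was 0.24, against -0.09 over all genes. Either way 25 passed, against 33.3% of all genes. The arrays did not overlap for 25 genes that were higher and 2 that were lower, against 16.8% and 25.8% of all genes. Directions rest on the labels, and the epithelial markers given above were far lower in the same arrays.

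Parp1, the main strand-break sensor, read 596, 585 and 607 in p53- Myc+ arrays, against 204, 245 and 238 in p53- arrays (1.32 ± 0.15, adjusted p = 1.68e-07). The arrays of each group were close together and the groups far apart. Ung read 258, 304 and 309, against 96.3, 105 and 88.3 in p53- arrays (1.44 ± 0.17, adjusted p = 4.37e-07). Lig3, the ligase that works with XRCC1, read 347, 363 and 441, against 186, 202 and 218 in p53- arrays (0.87 ± 0.16, adjusted p = 0.000152). The groups did not overlap for these 3 genes, and Xrcc1 (0.79) and Parp2 (0.78) rose with them. The glycosylase genes Neil3 (0.28), which acts in S phase, and Ogg1 (0.24), which removes oxidised guanine, did not pass. The E-box shown above for Parp1 and Lig3 is also found in Parp2, Eme1 and Slx4. These 5 of the 6 genes with it rose, the exception being Xrcc5 (-0.02). Of the 39 genes with a promoter but no E-box, 13 rose and 3 fell. Parp1, Lig3 and Parp2 are also base excision genes, of which 5 of 7 rose. How all tested genes with each motif named here changed was not counted, so these counts cannot tie a motif to a change. In p53- Rb- Myc+ against p53- Rb- arrays, 4 of the 6 genes with an E-box rose and 1 fell, and 22 of the 39 without one rose. Of the 9 genes with an E2F motif, 6 rose with p53 loss, as did 21 of the 36 without, and 0 rose and 1, Brca2, fell with Rb loss in p53- cells, where 1 rose and 11 fell of the 36 without. In p53- Rb- against WT arrays 7 of the 9 rose, and 16 of the 36 without. With p53 loss all 4 genes with the cell cycle homology region rose, and 23 of the 41 without it. With Rb loss in p53- cells 0 of the 4 rose and 1 fell, and 1 rose and 11 fell of the 41. In p53- Rb- against WT arrays 3 of the 4 rose, and 20 of the 41.

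Xrcc6 read 371, 319.6 and 366 in p53- Myc+ arrays, against 109, 125 and 153 in p53- arrays, well apart (1.35 ± 0.17, adjusted p = 8.29e-07), while its Ku partner Xrcc5 did not pass. Among recombination genes, Rad54l, a motor protein of strand exchange, read 192, 214 and 189, against 87.2, 105 and 82.5 in p53- arrays (1.00 ± 0.15, adjusted p = 1.37e-05). Rad51d read 109.5, 134 and 120.4, against 38, 66.7 and 53.2 (1.02 ± 0.16, adjusted p = 3.07e-05), and Rad51ap1, whose product aids strand invasion, read 166, 158 and 163, against 73.7, 88.6 and 71.5 (0.93 ± 0.17, adjusted p = 0.00011). None of the 3 overlapped. Exo1 (0.93), Slx4 (0.69) and Eme1 (0.61) rose too. Brca1 (-0.05), Brca2 (0.06), Palb2 (-0.15) and Brip1 (0.24) did not pass. Bard1 fell, with 211, 343 and 204 in p53- Myc+ arrays, against 328, 468 and 333 in p53- arrays, where the groups overlapped (-0.57 ± 0.19, adjusted p = 0.0218).

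Of the Fanconi genes, Fancd2 read 138, 142 and 133 in p53- Myc+ arrays, against 61.4, 70.5 and 65.2 in p53- arrays (0.91 ± 0.16, adjusted p = 6.69e-05), and Fanca (0.95), Fance (0.80), Fancf (0.76), Fanci (0.74) and Fancb (0.63) rose. Fancc fell to 42.6, 32.5 and 37.7 in p53- Myc+ arrays (-0.54 ± 0.20, adjusted p = 0.042). Xrcc4 fell to 84.2, 59.5 and 51.1, against 103, 94.5 and 103 in p53- arrays (-0.54 ± 0.19, adjusted p = 0.0339). The falls of Bard1, Fancc and Xrcc4 ended in 5 of 14, 7 of 13 and 8 of 14 alternatives, with adjusted p up to 0.126, 0.21 and 0.169, and all 3 ended after centring on the median and without p53- replicate 2 or p53- Myc+ replicate 3. For Fancc and Xrcc4 they also ended without p53- replicate 3 or p53- Myc+ replicate 2, for Bard1 without p53- Myc+ replicate 1, and for Xrcc4 without p53- replicate 1. The count that fell was 0 without p53- replicate 2 or p53- Myc+ replicate 3 and 1 without p53- replicate 3. In the checkpoint, Atm (0.93), Clspn (0.57) and Nbn (0.44) rose, and Pms2 rose in mismatch repair (0.74).

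Centring and quantile normalization raised the median of all genes to 0.111 and 0.112, under which 25 repair genes rose and 0 and 1 fell. Risers were 39.2% of all calls as reported, 59.2% after centring and 56.2% after quantile normalization. Proliferation markers rose in 11 of 18 and fell in 0, with sums of 12210 to 13100 in p53- Myc+ and 9143 to 9905 in p53- arrays. Endothelial markers fell in 5 of 8 and leukocyte markers in 4 of 11, while fibroblast markers rose in 7 of 12 and fell in 2. Both groups carry the p53- label, and of 16 p53 targets 9 fell and 2 rose. The part of these in the repair genes' changes was not tested.

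Among Rb-deleted cells, the p53- Rb- Myc+ arrays were compared with p53- Rb- arrays. The checkpoint kinase genes Atm, Atr and Chek1 rose, as did Fancb, Fancm and the strand-break sensors Parp1 and Parp2. In all, 29 of 53 rose and 1 fell, against 17.6% and 18.7% of all genes, with a median change of 0.52, against 0.12 over all genes. By pathway, 5 of 8 checkpoint, 10 of 19 recombination, 6 of 10 Fanconi, 2 of 3 mismatch repair, 2 of 6 end joining and 4 of 7 base excision genes rose. The arrays did not overlap for 32 genes that were higher and 2 that were lower, against 28.6% and 22.7% of all genes.

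Atm read 198, 199 and 99.6 in p53- Rb- Myc+ arrays, against 45.5, 62.4 and 45.4 in p53- Rb- arrays (1.39 ± 0.25, adjusted p = 0.00011). Chek1 read 168, 166 and 117, against 64.9, 87.4 and 51.1 in p53- Rb- arrays (0.99 ± 0.19, adjusted p = 0.000282), and Nbn read 232, 215 and 174, against 99.6, 116 and 103 in p53- Rb- arrays (0.86 ± 0.16, adjusted p = 0.000137). Each p53- Rb- Myc+ array was above each p53- Rb- array, with replicate 3 of p53- Rb- Myc+ the lowest of its group for Atm, Chek1 and Nbn. That replicate was also the lowest for other risers, among them Atr, Clspn, Blm, Brca1, Brca2, Brip1, Fancm and Fancb. It was not the lowest for Rad51ap1, Eme1 or Fancf. Atr rose by 1.13 ± 0.25 and Clspn by 0.62 ± 0.17, while Chek2 (0.41), Rad18 (0.37) and Rad50 (0.54) did not pass. Rad51ap1 read 178, 196 and 179 in p53- Rb- Myc+ arrays, against 90.8, 75.2 and 92.6 in p53- Rb- arrays (0.97 ± 0.17, adjusted p = 6.08e-05), and Blm read 149, 203 and 133, against 68.3, 74.3 and 57.2 in p53- Rb- arrays (1.09 ± 0.19, adjusted p = 8.13e-05). Brca2 (0.79), Rad54l (0.70), Rad52 (0.70), Brip1 (0.69), Exo1 (0.66), Brca1 (0.55), Xrcc3 (0.52) and Eme1 (0.44) rose as well.

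Fancb read 63.4, 69.6 and 60.8 in p53- Rb- Myc+ arrays, against 17.1, 25.3 and 14.8 in p53- Rb- arrays (1.21 ± 0.16, adjusted p = 2.93e-06), and Fancm (0.94), Fancf (0.69), Fanci (0.67), Fancd2 (0.65) and Fancc (0.59) rose. Msh6 and Msh3, which recognise mismatched bases and larger loops, rose by 0.62 ± 0.22 and 0.55 ± 0.20. Parp1 read 543, 583 and 537, against 290.1, 289.5 and 269 in p53- Rb- arrays (0.93 ± 0.15, adjusted p = 2.37e-05), and Parp2 558, 604 and 494, against 298, 294 and 259 (0.92 ± 0.18, adjusted p = 0.000308). Both strand-break sensors were well apart between the groups, and Ung (0.52) and Lig3 (0.48) rose by less. The Ku genes went opposite ways: Xrcc6 rose by 0.60 ± 0.17, and Xrcc5 read 104, 93.7 and 111 in p53- Rb- Myc+ arrays, against 177, 151 and 168 in p53- Rb- arrays, without overlap (-0.61 ± 0.15, adjusted p = 0.00236). After centring 36 genes rose and after quantile normalization 35, with 1 fall each. Proliferation markers rose in 8 of 18 and fell in 0, and 9 of 12 fibroblast markers fell while 2 rose. Of 16 p53 targets 10 fell and 2 rose, and the part of these lists was not tested.

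Rb loss among cells labelled Myc+ was examined by setting p53- Rb- Myc+ against p53- Myc+ arrays. Few repair genes passed: 0 of 53 rose and 1 fell by limma, against 3.29% and 1.4% of all genes, or 4.69% in either direction, and without adjustment 0 rose and 3 fell at a p under 0.05. The arrays did not overlap for 1 gene that was higher and 6 that were lower, against 12.8% and 7.71% of all genes. The changes of the 53 ran from -0.55 in Xrcc5 to 0.34 in Palb2, with a median of -0.06, against 0.05 over all genes. Xrcc5 read 104, 93.7 and 111 in p53- Rb- Myc+ arrays, against 164, 159.5 and 151 in p53- Myc+ arrays, and the groups did not overlap (-0.55 ± 0.15, adjusted p = 0.0288). By limma, adjusted p ran from 0.00586 to 0.142 over 14 alternatives, and 6 of them ended the call: a fit of these 6 arrays alone, without any one p53- Myc+ array, and without p53- Rb- Myc+ replicate 1 or 2. Rb1 itself was low in both groups, with 20, 18.3 and 17.9 in p53- Rb- Myc+ arrays and the p53- Myc+ values given above. Among genes that E2F factors are known to control, Brca1 (0.21 ± 0.17, adjusted p = 0.633), Chek1 (-0.12 ± 0.19, adjusted p = 0.848) and Clspn (-0.24 ± 0.17, adjusted p = 0.578) did not pass. Risers were 70.2% of all calls as reported, 55.8% after centring and 59.4% after quantile normalization. The values reported for this comparison did not use the possible pairing of same-number arrays described below.

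The change with Rb loss under the Myc+ label was then tested against that without it, in the same fit. This difference uses the same arrays as the comparisons above, among them the p53- arrays, so it is not independent of them. The difference passed for 7 of 53 genes, 4 of them positive and 3 negative, against 8.78% and 4.86% of all genes, so the share of repair genes was near that of all genes. The positive ones fell with Rb loss in p53- cells and not under the Myc+ label: Atr (difference 1.17 ± 0.35, adjusted p = 0.0295), Fancc (1.12 ± 0.28, adjusted p = 0.0102), Xrcc4 (0.95 ± 0.27, adjusted p = 0.0223) and Blm (0.93 ± 0.27, adjusted p = 0.024). Xrcc4 read 96.6, 100.1 and 62.2 in p53- Rb- Myc+ arrays and 61.5, 67.7 and 50.6 in p53- Rb- arrays. The negative ones were Ung (-0.92 ± 0.24, adjusted p = 0.0136), which passed as a rise with Rb loss in p53- cells, Rad51d (-0.85 ± 0.23, adjusted p = 0.0177) and Xrcc6 (-0.75 ± 0.24, adjusted p = 0.0386), whose changes with Rb loss did not pass in either background. Rad51d read 83, 80.3 and 95.6 in p53- Rb- Myc+ arrays and 71.2, 80.1 and 72.8 in p53- Rb- arrays. The positive count was 1 without p53- replicate 3, p53- Rb- replicate 3 or p53- Rb- Myc+ replicate 2, 2 without p53- Myc+ replicate 3 or p53- Rb- Myc+ replicate 1, and 7 without p53- Rb- Myc+ replicate 3, and the negative count was 1 without p53- replicate 1. Of 2719 differences over all genes, 64.4% were positive, against 45.1% after centring and 53.7% after quantile normalization, and 1762 and 1795 passed without p53- replicate 3 and without p53- Rb- Myc+ replicate 2.

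The other genes of repair, checkpoint signalling and translesion synthesis, a list of 75 of which 66 had a probe set, were counted in the same comparisons. With p53 loss 25 of the 66 rose and 2 fell, against 19.3% and 9.72% of all genes, among the risers Smc6 (1.91 ± 0.22, adjusted p = 2.6e-06) of an SMC complex that acts in recombination, and Rev3l (1.72 ± 0.20, adjusted p = 4.19e-06), the catalytic subunit of a translesion polymerase, and among the falls the alkylguanine transferase gene Mgmt (-1.31 ± 0.20, adjusted p = 5.19e-05). With Rb loss in p53- cells 7 rose and 13 fell, against 9.36% and 10.4% of all genes, with log2 changes of -1.72 in Rif1, which limits end resection, and -1.43 in Smc6, and rises in the replicative ligase gene Lig1 (0.60) and in Mad2l2 (0.66). In p53- Rb- against WT cells 17 rose and 2 fell, against 10.8% and 3.75% of all genes, including Rad1 (1.26) of the checkpoint clamp and the polymerase gene Polk (-0.51). With the Myc+ label in p53- cells 21 rose and 11 fell, against 13.1% and 20.2% of all genes: the base excision nuclease gene Apex1 rose (1.16 ± 0.14, adjusted p = 8.35e-07), as did the fork gene Tipin (1.13), while the nucleotide excision genes Ercc1 (-0.94) and Ddb2 (-1.56) and the repair polymerase gene Polb (-0.89) fell. Among Rb-deleted cells 24 rose and 12 fell with the Myc+ label, against 17.6% and 18.7% of all genes, again with Apex1 (0.94) and Ercc1 (-1.14) among them. Under the Myc+ label 0 rose and 2 fell with Rb loss by limma, against 3.29% and 1.4% of all genes, Poli (-0.75) and Nthl1 (-0.61), with 6 higher at an unadjusted p under 0.05. Medians of this list were 0.28, 0.01, 0.28, 0.11, 0.29 and 0.00 in these 6 comparisons, in the order given, against 0.12, -0.08, 0.045, -0.09, 0.12 and 0.05 over all genes.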

How the data were processed

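Per the labels' protocols, labelling of the RNA used the WT-Ovation Pico amplification system, with 1 array for each of 15 samples. The authors deposited 1 intensity per probe set, and the submitters' processing notes name Affymetrix Expression Console 1.1. How probes were summarised and arrays scaled is not given in the sources used here. These deposited intensity values ran from 4.11e-05 to 8348, with no negatives, so they were linear. Array medians ran from 41.28 to 54.9. The number of arrays limits the precision.

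Of 35556 probe sets, 21789 had 1 gene symbol in the platform annotation, 1621 several and 12146 none listed. Entrez numbers of 21698 matched a gene table of GRCm38.p6, and 0 symbols changed. Each of 19938 genes took its probe set with the highest mean. Group means of all 15 arrays were fitted to log2(intensity + 16) with limma 3.58.1 in R 4.3.3 (lmFit, eBayes, 10 residual and 11.78 prior degrees of freedom), with Benjamini-Hochberg adjustment over all genes, 2-sided, threshold 0.05. The fit was checked on simulated data. Members, lists, tests and the rule for named genes were chosen with earlier results of these data known. Array values were given for the up to 8 genes per direction and comparison with the smallest p, and up to 4 of other lists were named. Same-number arrays of p53- Rb- Myc+ and p53- Myc+ had correlated deviations (r = 0.102, 0.192 and 0.379). Each p53- Rb- Myc+ array correlated best with the p53- Myc+ array of its own number. This was taken as possible pairing, from the values rather than the labels. The rule was tried on every pair of groups compared, and no other pair met it. Same-number r there ran from -0.375 to 0.218. With so few arrays per group the rule cannot establish pairing.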

Additional observations from a re-analysis of the deposited data

Results flagged for a closer look

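For 7 of 53 genes the change with Rb loss differed between cells with and without the Myc+ label, by the interaction term of the limma fit. Of all genes 13.6% passed, so the share of repair genes was near that of all genes. Rb1 itself was low in both groups labelled Myc+, as given above. The difference (with minus without the label) was 1.17 for Atr, 1.12 for Fancc, 0.95 for Xrcc4, 0.93 for Blm, -0.92 for Ung, -0.85 for Rad51d and -0.75 for Xrcc6. In p53- Rb- against p53- arrays these genes changed by -1.11, -0.97, -0.62, -0.71, 0.82, 0.42 and 0.46, and in p53- Rb- Myc+ against p53- Myc+ arrays by 0.06, 0.15, 0.34, 0.22, -0.11, -0.42 and -0.29. Some calls ended when 1 array was left out or under another constant, centring or quantile normalization: over 20 alternatives the limma adjusted p reached 0.103 for Atr, 0.0712 for Xrcc4, 0.0853 for Blm, 0.0635 for Rad51d and 0.112 for Xrcc6, while Ung passed in all 20 and Fancc in the 19 that gave it a value. Groups of 3 arrays were too small for a search for outlying samples.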

How the results depend on the processing

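Of 53 named results 40 kept their call in every alternative run, 13 lost it in some, and 0 reversed. Counts of repair genes moved as follows. After centring each array on its median, the genes that fell with p53 loss numbered 1, those that rose with Rb loss in p53- cells 4, and those that fell with the Myc+ label in p53- cells 0; after quantile normalization they were 2, 2 and 1. With a constant of 1 added before log2, 8 fell with Rb loss, 1 fell with the Myc+ label in p53- cells and 1 positive difference between the Rb comparisons was left; with 64, 3 rose with Rb loss. Among genes at or above the median level, 5 rose and 8 fell with Rb loss, where fewer genes were tested. With only the compared groups in the fit, 2 rose with Rb loss in p53- cells and 0 fell with it under the Myc+ label. With the mean of all probe sets of a gene, 33 rose with p53 loss, against 34 as reported. In p53- Rb- against WT cells 27 rose, against 28 as reported. The cause of these shifts was not tested.

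With one array left out, ranges were 27 to 35 rising, 0 to 1 falling and 3470 to 6094 of all genes for p53- against WT; 1 to 3, 4 to 13 and 2098 to 4725 for p53- Rb- against p53-; 18 to 27, 0 to 0 and 1697 to 3167 for p53- Rb- against WT; 20 to 22, 0 to 2 and 5647 to 6372 for p53- Myc+ against p53-; 21 to 30, 1 to 1 and 5813 to 6800 for p53- Rb- Myc+ against p53- Rb-; 0 to 0, 0 to 1 and 649 to 867 for p53- Rb- Myc+ against p53- Myc+; and 1 to 7, 1 to 3 and 1762 to 3234 for the difference. Where one array is left out, 2 remain in its group.

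With the replicate number as a block, 36, 1, 29, 23, 29 and 0 repair genes rose and 0, 14, 0, 3, 1 and 1 fell in the 6 comparisons in the same order, and 5 differences were positive and 3 negative; no count moved by over 1.5 times. For p53- Rb- Myc+ against p53- Myc+, where the numbers were taken as possible pairing, 931 genes passed with the block and 935 without it. The block was shared by all 5 groups, so this was not a paired test of these 6 arrays and cannot show what pairing changes. Signal over background could not be assessed from 1 intensity per probe set, and 7 repair genes lay under the added constant in at least 1 array.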
